A study of Mus musculus with 13 samples.

Results

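The genes described here are 8 interferon-gamma inducible GTPase genes of the mouse, Gbp2, Gbp3, Gbp6, Gbp7, Igtp, Irgm1, Irgm2 and Iigp1. They were chosen by name, and 8 of 8 were among the 20971 genes of the deposited table. RNA was sequenced from the cortex of C57BL/6 mice aged 6 months: 7 libraries from APPPS1;Apoe-/- mice, which lack apolipoprotein E, and 6 from APPPS1 mice, which keep it. By the labels both groups carry the APPPS1 transgenes, mutant human amyloid precursor protein and presenilin 1 driven in neurons by the Thy1 promoter. No group labelled as free of the transgenes is part of the comparison, and the labels give no amyloid load. The Apoe deletion is carried by every cell of the knockout mice, and the tissue is bulk cortex, in which fewer cells of a type and less RNA per cell cannot be told apart.

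The members belong to the dynamin-like guanylate-binding proteins (Gbp genes) and the smaller immunity-related GTPases (Igtp, Irgm1, Irgm2 and Iigp1). As background, interferon-gamma binds the receptor made of Ifngr1 and Ifngr2, the kinases Jak1 and Jak2 pass the signal on, and transcription factors that include Irf1 and Irf8 switch these genes on. Type I interferons act on many of them through a complex that holds Irf9. In mouse cells the proteins gather on membranes around intracellular microbes, and in the brain microglia, astrocytes and endothelial cells can make them in response to interferon from T cells, NK cells or glia. Irgm1, Irgm2 and Igtp are the regulatory members of their family, which keep effector GTPases such as Iigp1 inactive on the cell's own membranes.

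Most of the members lie in clusters, at the following mm10 positions from RefSeq. Gbp7 (142530336 to 142550151), Gbp3 (142560016 to 142573213) and Gbp2 (142620663 to 142638008) lie on the plus strand of chromosome 3 within 107.7 kb, and Gbp6 on the minus strand of chromosome 5 (105270702 to 105295871). Igtp (58199556 to 58207592) and Irgm2 (58214977 to 58222783) are neighbours on the plus strand of chromosome 11, with 7.38 kb between them, and Irgm1 (48865245 to 48871420, minus strand) lies 9.33 Mb away on the same chromosome. All 8 genes are annotated as protein coding.

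Promoter windows were at hand for 6 members, in the RefSeq table for GRCm38.p6, the mm10 assembly. The 250 bases before the annotated start were searched on both strands for GAAANNGAAA, the core of the interferon-stimulated response element to which interferon regulatory factors bind. All 6 held it, against 2.98% of 32841 windows of the same length. Gbp3 and Irgm1 each held 2 overlapping matches. The 30 bases around each match are shown because this is the sequence feature that the 6 genes share, written in the direction of the gene with the match in capitals.
Gbp2 (chr3:142620594-142620623, plus strand): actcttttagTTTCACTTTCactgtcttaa
Gbp3 (chr3:142559992-142560021, plus strand): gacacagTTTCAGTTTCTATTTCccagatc
Gbp7 (chr3:142530273-142530302, plus strand): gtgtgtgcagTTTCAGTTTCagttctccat
Igtp (chr11:58199512-58199541, plus strand): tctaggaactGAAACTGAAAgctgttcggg
Irgm1 (chr11:48871428-48871457, minus strand): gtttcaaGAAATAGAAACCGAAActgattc
Irgm2 (chr11:58214903-58214932, plus strand): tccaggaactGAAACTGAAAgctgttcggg
The match lay on the strand opposite to the gene in the 3 Gbp genes and on the gene's own strand in the other 3. Igtp and Irgm2 shared it within longer likeness: over 220 aligned positions of their windows 88.2% were identical. Gbp2, Gbp3, Irgm1 and Irgm2 also have annotated transcripts that start farther upstream than the start used for the window.

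The second motif searched was TTCNNNGAA, the gamma-activated site known from genes that respond to interferon-gamma. It reads the same on both strands and was found in 3 of the 6 windows, those of Gbp7, Igtp and Irgm2, against 7.02% of all windows. In Irgm2 it lay at -75 to -67 relative to the start, next to GAAANNGAAA at -64 to -55. The stretches of Gbp7 and Igtp up to the last base before the start are shown, with both motifs in capitals. These 2 hold both motifs and have no annotated transcript that starts farther upstream.
Gbp7 (chr3:142530210-142530335, plus strand): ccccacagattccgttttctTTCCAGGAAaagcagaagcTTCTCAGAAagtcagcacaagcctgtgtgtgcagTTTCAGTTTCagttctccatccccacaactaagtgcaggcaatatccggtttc
Igtp (chr11:58199491-58199555, plus strand): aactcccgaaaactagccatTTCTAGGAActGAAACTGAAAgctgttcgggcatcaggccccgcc
Whether any factor occupied these sequences was not measured.

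Levels are in RPKM, reads scaled for gene length and library depth, as the authors deposited them. A log2 difference is the fitted APPPS1;Apoe-/- level less the APPPS1 level on the log2(RPKM + 0.5) scale. It comes from limma over the 13343 genes whose mean reached 0.5 RPKM, with Benjamini-Hochberg adjustment over them all, and understates the change of weak genes. The APPPS1;Apoe-/- libraries held 18455493 to 34538031 alignments and the APPPS1 libraries 28402328 to 77005806. Apoe was at 4.01 to 6.35 RPKM in APPPS1;Apoe-/- libraries and 463 to 670 RPKM in APPPS1 libraries, as labelled (two-sided exact permutation p = 0.000583, the smallest that 1716 splits can give). App, to which transgene reads can align, was at 106 and 116 RPKM in APPPS1;Apoe-/- replicates 2 and 5, against 176 to 217 RPKM in the other libraries. The members and the gene lists are also described without both. By Xist, 5 APPPS1;Apoe-/- and 5 APPPS1 libraries were female, and 2 and 1 male. Slc17a7, a marker of cortical excitatory neurons, was present throughout but lower in the knockout, at 29.3 to 47.2 RPKM in APPPS1;Apoe-/- libraries and 37.6 to 55.5 RPKM in APPPS1 libraries (log2 difference -0.42, limma adjusted p = 0.0245), a call that ended without replicates 2 and 5 of APPPS1;Apoe-/- (-0.36, adjusted p = 0.0863).

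All 8 GTPase genes had a lower fitted level in APPPS1;Apoe-/- cortex, and 2 of them, Gbp3 and Irgm1, passed the test. The other 6 did not pass, and none was higher. Over all genes tested, 4.74% passed as lower and 3.48% as higher, 57.7% of calls being lower. That share was 43.1% when libraries were scaled to one median and 46.9% after quantile normalization. The members' differences ran from -0.85 to -0.15 on the log2 scale with a median of -0.33, beside -0.01 over all genes, of which 52.3% lay below 0. In 6 of the 8 the unadjusted p was under 0.05, as in 25.0% of all genes. In no member did every APPPS1;Apoe-/- library lie below every APPPS1 library, a separation seen in 2.17% of genes. None had a mean under 0.5 RPKM, so none was left out of the test.

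**Figure D1:**
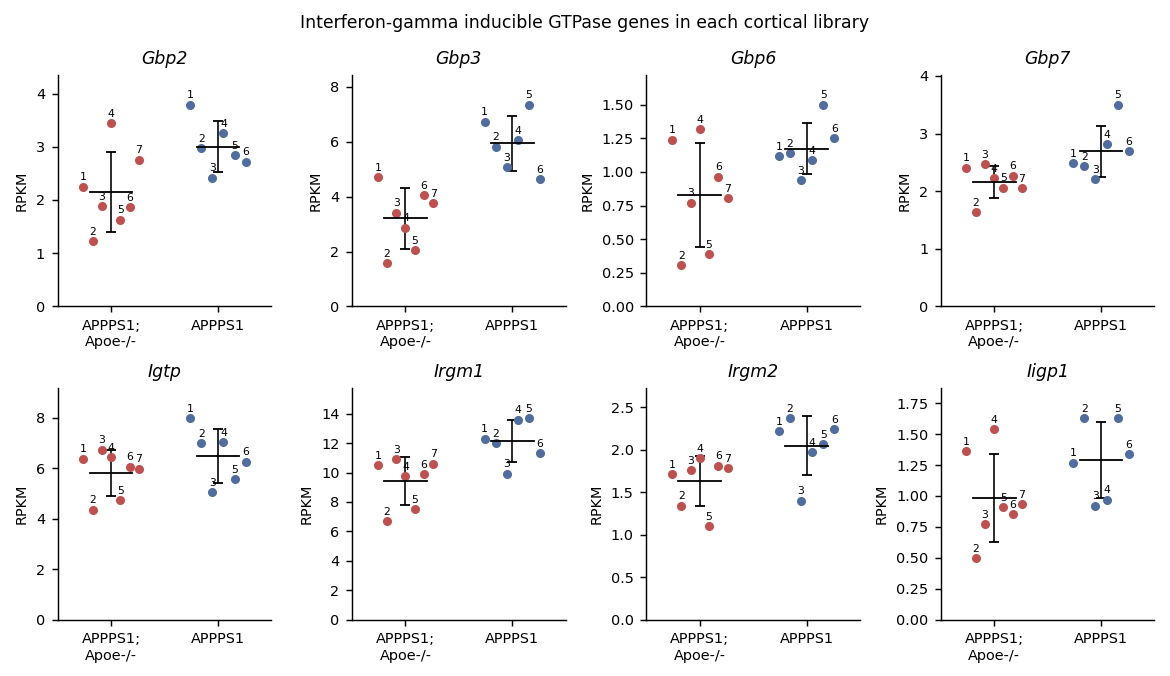
RPKM of the 8 genes, 1 numbered point per library, with APPPS1;Apoe-/- left and APPPS1 right. Bar and whiskers give the mean and SD (n = 7 and n = 6), Gbp3 shows the widest gap between the groups, and replicate 2 of APPPS1;Apoe-/- is lowest of its group in 7 of the 8 genes.

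Gbp3, one of the large GTPases of the chromosome 3 cluster, changed most. It was at 1.57 RPKM in the lowest, 3.42 in the median and 4.72 in the highest APPPS1;Apoe-/- library, against 4.63, 5.93 and 7.35 RPKM in the APPPS1 libraries. Only the highest knockout library, replicate 1, exceeded any APPPS1 library, the lowest one, replicate 6. Gbp3 averaged 3.21 ± 1.12 RPKM in APPPS1;Apoe-/- libraries and 5.94 ± 1.01 RPKM in APPPS1 libraries (SD, n = 7 and n = 6), and its log2 difference was -0.85 ± 0.18 (SE, limma adjusted p = 0.00974). Without replicates 2 and 5 of APPPS1;Apoe-/- it was -0.60 ± 0.12 (adjusted p = 0.0114). With a term for the number of alignments, on the log2 scale, it was -0.86 ± 0.24 and no longer passed (adjusted p = 0.0854).

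Gbp2, whose protein is recruited to the vacuole of Toxoplasma in mouse cells, overlapped more. It had 1.22, 1.88 and 3.44 RPKM as the lowest, median and highest APPPS1;Apoe-/- values, against 2.42, 2.91 and 3.79 RPKM in APPPS1. While 5 of the 7 knockout libraries lay below every APPPS1 library, replicate 4 at 3.44 RPKM lay above the APPPS1 mean of 3.0 RPKM. The log2 difference was -0.44 ± 0.15 (SE, limma adjusted p = 0.0917), and without that 1 library it was -0.54 and passed (adjusted p = 0.0181). Without replicates 2 and 5 of APPPS1;Apoe-/- it was -0.27 (adjusted p = 0.262).

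Gbp7, which takes part in assembling the phagocyte NADPH oxidase on microbial vacuoles, had the smallest spread between libraries of the chromosome 3 members. Its values were 1.63, 2.23 and 2.47 RPKM (lowest, median, highest) in APPPS1;Apoe-/- libraries, against 2.21, 2.59 and 3.5 RPKM in APPPS1 libraries. The knockout values reached into the lower part of the APPPS1 range. The log2 difference was -0.26 ± 0.09 (SE, limma adjusted p = 0.0976), and -0.19 without both low-App libraries (adjusted p = 0.253).

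Gbp6, from the second Gbp cluster, was the weakest member. It was at 0.308, 0.806 and 1.32 RPKM (lowest, median, highest) in APPPS1;Apoe-/- libraries, against 0.941, 1.13 and 1.5 RPKM in APPPS1 libraries. Replicates 2 and 5, at 0.308 and 0.390 RPKM, stood apart, while replicates 1 and 4, at 1.24 and 1.32 RPKM, lay above the APPPS1 mean of 1.17 RPKM. The log2 difference was -0.38 ± 0.17 (SE, limma adjusted p = 0.17). Without replicates 2 and 5 it was -0.15 ± 0.11 (adjusted p = 0.483). Its value corresponds to 7.19 reads per kilobase of gene in replicate 5 of APPPS1;Apoe-/- and 72.4 in APPPS1 replicate 3, so the weak values are also the least precise. Of the 50-base windows of its GENCODE transcripts 70.7% occur in a transcript of another gene, 45.9% in Gbp10, so Gbp6 and Gbp10 reads may be split between both and its value is uncertain. For the other members 0.31% to 12.7% of windows were shared.

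Irgm1, the regulatory GTPase needed in mice for resistance to several intracellular bacteria and parasites, had the highest level of the 8. It was at 6.69, 9.88 and 10.9 RPKM (lowest, median, highest) in APPPS1;Apoe-/- libraries, against 9.92, 12.2 and 13.7 RPKM in APPPS1 libraries. Apart from replicate 3 of APPPS1, at 9.92 RPKM, every APPPS1 library lay above every knockout library. Irgm1 averaged 9.40 ± 1.63 RPKM in APPPS1;Apoe-/- libraries and 12.1 ± 1.44 RPKM in APPPS1 libraries (SD, n = 7 and n = 6), a log2 difference of -0.36 ± 0.11 (SE, limma adjusted p = 0.049). The call sat at the threshold. It held in 4 of 13 fits that left out 1 library, and ended without both low-App libraries (-0.22 ± 0.08, adjusted p = 0.115) and with the alignments term (-0.43, adjusted p = 0.133). With both changes together, a fit added after seeing the data, it passed (-0.34, adjusted p = 0.0387).

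Irgm2 and Igtp, the neighbouring regulatory members, did not pass. Irgm2 had 1.10, 1.76 and 1.90 RPKM (lowest, median, highest) in APPPS1;Apoe-/- libraries, against 1.40, 2.14 and 2.37 RPKM in APPPS1 libraries. As for Irgm1, APPPS1 replicate 3 was the only library of its group within the knockout range. Its log2 difference was -0.26 ± 0.11 (SE, limma adjusted p = 0.16), and without that library it was -0.34 and passed (adjusted p = 0.0469). Without both low-App libraries it was -0.14 (adjusted p = 0.442). Igtp, also called Irgm3, a protein of the endoplasmic reticulum, was at 4.36, 6.06 and 6.73 RPKM in APPPS1;Apoe-/- libraries, against 5.06, 6.62 and 7.98 RPKM in APPPS1 libraries. The groups overlapped widely. Its log2 difference was -0.15 ± 0.11 (SE, limma adjusted p = 0.434), with a 95% confidence interval from -0.38 to 0.09, and -0.02 ± 0.09 without both low-App libraries.

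Iigp1, the effector also known as Irga6, lies on chromosome 18, and its protein attacks the vacuole membrane of parasites. It was at 0.497, 0.909 and 1.54 RPKM (lowest, median, highest) in APPPS1;Apoe-/- libraries, against 0.922, 1.30 and 1.63 RPKM in APPPS1 libraries. Replicates 1 and 4 of the knockout group, at 1.36 and 1.54 RPKM, lay among the higher APPPS1 values and 4 knockout libraries lay below all of them. The log2 difference was -0.29 ± 0.15 (SE, limma adjusted p = 0.241), with an interval from -0.61 to 0.03, and -0.18 without both low-App libraries (adjusted p = 0.516).

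**Figure D2:**
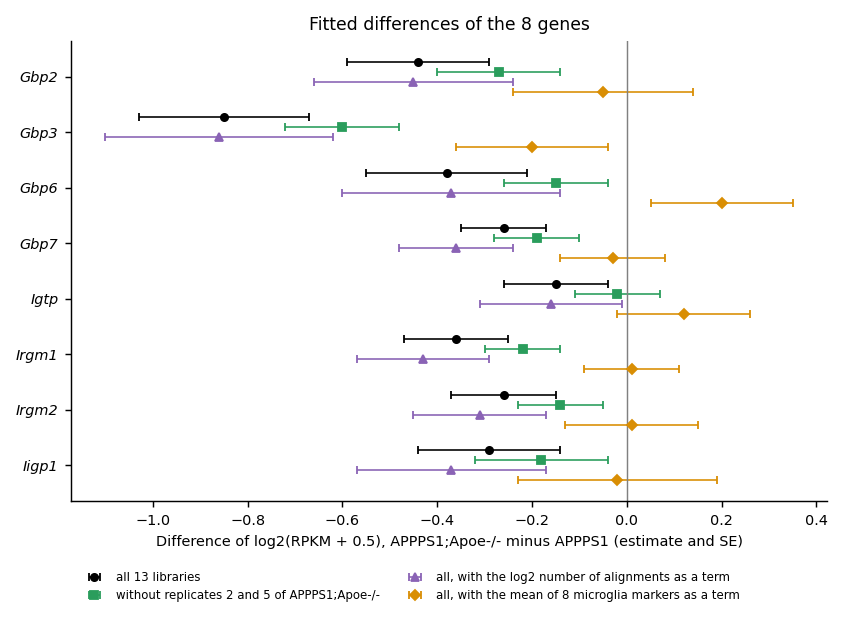
Fitted log2 difference between APPPS1;Apoe-/- and APPPS1 (above 0, higher in APPPS1;Apoe-/-) for each gene (symbols, with SE) with all 13 libraries, without replicates 2 and 5 of APPPS1;Apoe-/-, with an alignments term, and with the mean of 8 microglia markers as a term. The differences shrink without the pair of libraries and lie between -0.20 and 0.20 with the microglia term.

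The same libraries were low in most members. Replicate 2 of APPPS1;Apoe-/- was lowest of its group in 7 of 8 members and replicate 5 in the other, and both lay below every APPPS1 library in 8 of 8. The members' summed level was 17.6 and 20.4 RPKM there, against 27.8 to 30.5 RPKM in the other 5 knockout libraries and 27.9 to 38.2 RPKM in APPPS1 libraries. APPPS1 replicate 3, the most deeply sequenced library, was lowest of its group in 7 of 8 members, with a sum of 27.9 RPKM against 32.4 to 38.2 RPKM in the other 5. With both low-App libraries left out, the members' median difference was -0.18, beside -0.01 over all genes, and 1 of 8 passed as lower, Gbp3, where 3.3% of all genes passed as lower and 1.78% as higher. With the alignments term 0 of 8 passed by limma, with a median of -0.37. Of all genes 0.989% then passed as lower and 0.525% as higher. In that fit 5 of 8 members had an unadjusted p under 0.05. Over all genes that unadjusted share was 25.0% with genotype as the only term. It is not given for the other fits, here or for the lists below. The number of alignments differs between the groups and its part in the result was not tested. Over the 28 pairs of members, Pearson's r of the log2 values after removing group means ran from 0.33 to 0.88 with a median of 0.66 (13 libraries), and from -0.12 to 0.86 with a median of 0.32 without both. These values share libraries and carry no test.

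Markers of microglia moved with the same libraries. Their summed level over 8 markers was 139 and 151 RPKM in replicates 2 and 5, 218 to 239 RPKM in the other APPPS1;Apoe-/- libraries and 273 to 323 RPKM in APPPS1 libraries, and 5 of the 8 passed as lower (among them Ptprc, Csf1r, Cx3cr1 and Itgam, with a median over the 8 of -0.49). Without both low-App libraries 4 of the 8 markers passed as lower. With the alignments term 0 passed by limma, with an adjusted p of 0.0548 for Ptprc, 0.172 for Csf1r and 0.265 for Cx3cr1, while 5 were lower at an unadjusted p under 0.05. APPPS1 replicate 3, low in the GTPase genes, was not low in these markers, at 301 RPKM. With the mean of the microglia markers as a term, chosen after seeing the data, the members' differences ran from -0.20 for Gbp3 to 0.20 for Gbp6, with a median of -0.01, and 0 of 8 passed by limma or had an unadjusted p under 0.05, where 0.495% of all genes passed as lower and 0.277% as higher. The marker levels differ between the groups, so this term takes up part of the difference between the genotypes, and the part of microglial content in the result was not tested. Of markers of other cells, 1 of 6 astrocyte markers (Aqp4) and 1 of 7 endothelial markers (Kdr) passed as lower. Both calls ended without both low-App libraries (adjusted p = 0.122 for Aqp4 and 0.0764 for Kdr), where the endothelial marker Cldn5 passed as lower, and with the alignments term (0.208 and 0.241). Of the astrocyte markers 3 of 6 were higher at an unadjusted p under 0.05 and 0 passed as higher by limma. The summed endothelial level was 34.7 to 38.1 RPKM in APPPS1;Apoe-/- libraries and 32.0 to 43.1 RPKM in APPPS1 libraries. Of the 4 oligodendrocyte markers 3 passed as higher, among them Mog and Mobp, and the 4 summed to 795 to 1260 RPKM in APPPS1;Apoe-/- libraries and 701 to 989 RPKM in APPPS1 libraries, but 0 passed by limma without both low-App libraries, where 3 had an unadjusted p under 0.05.

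The genes with the most similar pattern, ranked among 13335 genes by Pearson's r to the members' mean log2 value over 13 libraries with group means removed, shared library effects included, were Cd52 (r = 0.964), Ctsh (0.962), Bcl2a1b (0.946), C1qc (0.936), Tyrobp (0.934) and Fcer1g (0.933). Without both low-App libraries r was 0.690 to 0.850 for these genes. Cd52, Ctsh and Bcl2a1b then ranked 15, 18 and 22, and Tyrobp, C1qc and Fcer1g 62, 94 and 229, so the order rests in part on that pair of libraries. Cd52 encodes a surface peptide of leukocytes, Ctsh a lysosomal protease and Tyrobp a signalling adaptor of myeloid cells. Cd52 itself was at 4.23 to 17.1 RPKM in APPPS1;Apoe-/- libraries and 19.3 to 32.5 RPKM in APPPS1 libraries.

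Of the other GTPases of these families, 22 were in the table and 7 were strong enough to test, of which 2 passed as lower and 0 as higher. Gm4951, an immunity-related GTPase gene, averaged 0.496 ± 0.211 RPKM in APPPS1;Apoe-/- libraries and 0.965 ± 0.206 RPKM in APPPS1 libraries (SD, n = 7 and n = 6), a log2 difference of -0.57 ± 0.14 (SE, limma adjusted p = 0.0166). Gbp9 averaged 0.434 ± 0.133 RPKM in APPPS1;Apoe-/- libraries and 0.689 ± 0.0866 RPKM in APPPS1 libraries (-0.36 ± 0.10, adjusted p = 0.0327). Its call ended without replicates 2 and 5 of APPPS1;Apoe-/- (adjusted p = 0.117). The median of the 7 was -0.16. With the alignments term and with the microglia term 0 of them passed by limma (2 and 0 at an unadjusted p under 0.05). Gbp4, Gbp5, Gbp8, Gbp10 and Gbp11 had means under 0.5 RPKM and were not tested.

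Among 16 genes of interferon-gamma signalling, 13 were tested, 4 passed as lower and 0 as higher, with a median of -0.04, and 3 passed as lower without both low-App libraries. The interferon-gamma gene Ifng was too weak to test. It was listed at 0 in 6 of 7 APPPS1;Apoe-/- libraries and 2 of 6 APPPS1 libraries. Its highest value was 0.063 RPKM in APPPS1;Apoe-/- replicate 3, and the highest in APPPS1 was 0.0385 RPKM. At such levels a listing of 0 also depends on the number of alignments, which differed between the groups. These counts of 0 therefore do not compare the genotypes. The receptor chain Ifngr1 did not differ by the test (14.6 ± 1.29 RPKM in APPPS1;Apoe-/- and 14.3 ± 0.939 RPKM in APPPS1, log2 difference 0.02, 95% confidence interval -0.11 to 0.15). Its partner chain Ifngr2 fell to 12.4 ± 0.885 RPKM in APPPS1;Apoe-/-, against 15.4 ± 1.40 RPKM in APPPS1 (SD, log2 difference -0.30 ± 0.06, limma adjusted p = 0.00805).

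The kinases Jak1 and Jak2 did not pass (log2 differences -0.04 and 0.11; limma adjusted p = 0.669 and 0.462). Irf1, a factor that interferon-gamma induces, was at 2.62 to 3.27 RPKM in APPPS1;Apoe-/- libraries and 2.57 to 3.49 RPKM in APPPS1 libraries and did not pass (-0.10, adjusted p = 0.408). Irf8 and Irf9 fell (-0.89 ± 0.11 and -0.71 ± 0.15, SE, adjusted p = 1.34e-04 and 0.0101), and their groups did not overlap. The feedback inhibitor Socs1 was not tested, since it reached at most 0.0419 RPKM in APPPS1;Apoe-/- libraries and 0.0875 RPKM in APPPS1 libraries.

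Of 28 other genes that interferon-gamma induces 18 were tested, 8 passed as lower and 0 as higher (median -0.25), and 5 passed as lower without both low-App libraries. The chemokine gene Cxcl10 had 0.308 to 1.97 RPKM in APPPS1;Apoe-/- libraries and 2.45 to 3.11 RPKM in APPPS1 libraries, with no overlap (-0.97 ± 0.21, limma adjusted p = 0.0087). The Fc receptor gene Fcgr1 (-0.73 ± 0.11, adjusted p = 8.65e-04), the peptide-loading gene Tapbp (-0.36 ± 0.07, adjusted p = 0.00401) and the immunoproteasome gene Psmb8 (-0.68 ± 0.16, adjusted p = 0.0135) fell as well. Cxcl9, which responds more narrowly to interferon-gamma, and the class II and class I transactivator genes Ciita and Nlrc5 were under 0.5 RPKM in every library. Of 26 type I interferon-stimulated genes 24 were tested and 18 passed as lower, 0 as higher, with a median of -0.66, and 14 passed without both low-App libraries. Oasl2 and Irf7 fell by 1.01 and 1.05 on the log2 scale. The GTPase genes and the type I genes were not tested against each other. With the alignments term the genes passing as lower numbered 1 of 13 in signalling, 2 of 18 among the other targets and 9 of 24 among the type I genes. With the microglia term Irf8 alone passed in signalling and 0 by limma in the other lists. At an unadjusted p under 0.05, 2 signalling genes were then lower and 3 higher. Of the other targets 3 were lower and 1 higher, and of the type I genes 8 were lower and 0 higher.

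**Figure D3:**
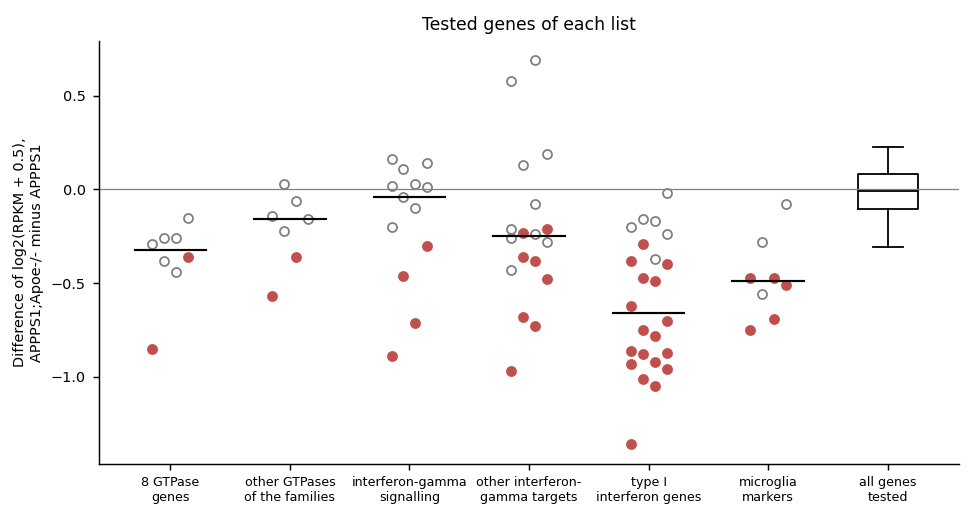
Log2 difference between APPPS1;Apoe-/- and APPPS1 (above 0, higher in APPPS1;Apoe-/-) for each tested gene of 6 lists (points, filled where the limma adjusted p was under 0.05, with a line at the list's median), beside all 13343 genes (box of quartiles, whiskers from percentile 5 to 95). The type I interferon genes lie lowest with a median of -0.66, and the 8 GTPase genes have a median of -0.33.

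Replicate 4 of APPPS1;Apoe-/- stood apart in another way. It was the highest knockout library for Gbp2, Gbp6, Irgm2 and Iigp1, at 3.44, 1.32, 1.90 and 1.54 RPKM, but not for Gbp3, at 2.87 RPKM. In the same library the class II genes H2-Aa, H2-Ab1, H2-Eb1 and Cd74, singled out after their values were seen, summed to 125 RPKM, against 18.6 to 43.5 RPKM in the other APPPS1;Apoe-/- libraries and 27.3 to 39.6 RPKM in APPPS1 libraries. Cxcl9 was at 0.458 RPKM there, against at most 0.118 RPKM in the other knockout libraries and 0.112 RPKM in APPPS1 libraries. The 10 markers of T and NK cells summed to 2.53 RPKM in this library, to 1.02 to 1.95 RPKM in the other knockout libraries and to 1.48 to 2.31 RPKM in APPPS1 libraries. Of these markers 8 of 10 stayed under 0.5 RPKM in every library. The largest in replicate 4 were Nkg7 (0.739 RPKM), Lck (0.710 RPKM) and Cd2 (0.450 RPKM), and Lck was at 0.694 to 1.08 RPKM over all libraries. Cd3e was at 0.149 RPKM in replicate 4 and highest in replicate 7 of APPPS1;Apoe-/-, at 0.351 RPKM. Cd8a was highest in replicate 4, at 0.110 RPKM. The part of these cells in the GTPase levels of that library was not tested.

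**Figure D4:**
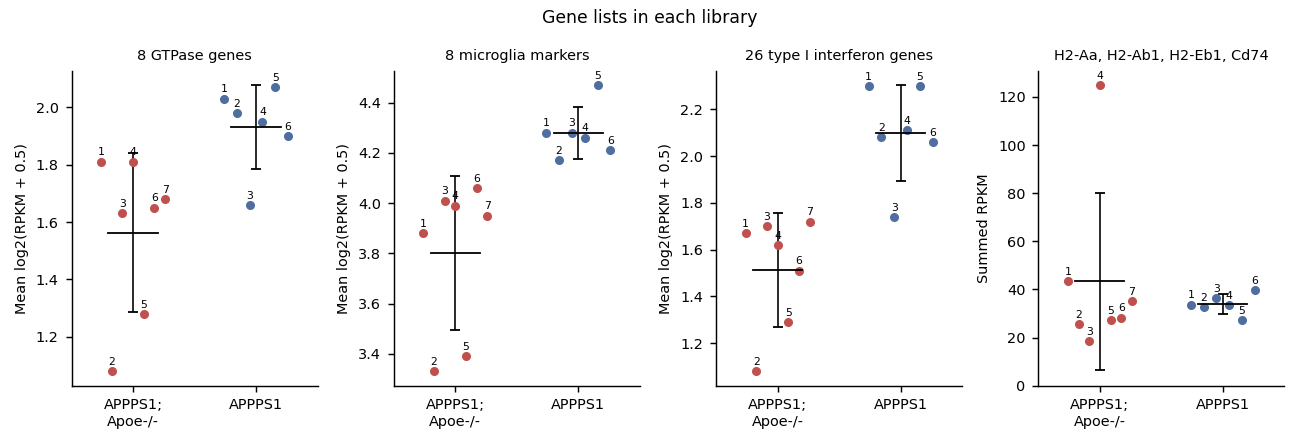
Mean log2(RPKM + 0.5) of the 8 GTPase genes, of 8 microglia markers and of 26 type I interferon genes, and summed RPKM of 4 class II genes, as 1 numbered point per library, with APPPS1;Apoe-/- left and APPPS1 right. Bars and whiskers give mean and SD (n = 7 and n = 6), only the panel of sums starts at 0, replicates 2 and 5 of APPPS1;Apoe-/- are lowest in the first 3 panels, and replicate 4 is highest in the last, at 125 RPKM.

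The conjugation machinery that places Atg8 proteins on membranes, which steers these GTPases to vacuoles in mouse cells, went both ways. Of 12 genes 1 passed as lower and 2 as higher (median 0.04). Map1lc3b was at 449 ± 23.6 RPKM in APPPS1;Apoe-/- libraries and 372 ± 19.5 RPKM in APPPS1 libraries (0.27 ± 0.05, limma adjusted p = 0.00401), and Atg5 was higher as well (0.22 ± 0.06, adjusted p = 0.0283). The Atg5 call ended without both low-App libraries (0.18, adjusted p = 0.0895) and in 5 of 13 fits that left out 1 library, those without APPPS1;Apoe-/- replicates 1, 2 or 7 or APPPS1 replicates 1 or 4, with an adjusted p of up to 0.0606. Map1lc3a was lower, at 79.6 ± 6.02 RPKM in APPPS1;Apoe-/- libraries and 95.3 ± 3.84 RPKM in APPPS1 libraries (-0.26 ± 0.05, adjusted p = 0.0069). With the alignments term 0 of the 12 passed by limma, while 2 were lower and 2 higher at an unadjusted p under 0.05.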

How the data were processed

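Cortical RNA of 13 mice came from a Trizol extraction and was made into libraries with a SMARTer kit, per the labels' protocols. The authors deposited RPKM values per gene and a count of alignments per library in 1 table. Per the submitters' processing notes Partek and mm10 were used. Which aligner, counting rule, strand setting and annotation stood behind them is not given in the sources used here. Gene columns were matched by exact symbol, the 13 genotypes in the table matched the labels, no 2 libraries were identical, and 0 per-sample columns were left unused for want of a sample. Replicate numbers follow accession order.

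Values were taken as log2(RPKM + 0.5) and fitted with limma 3.58.1 in R 4.3.3 (mean-variance trend, genotype as the only term) for the 13343 genes whose mean reached 0.5 RPKM. Tests were two-sided and called at a Benjamini-Hochberg adjusted p under 0.05. Beyond genotype, strain, age and tissue the labels say nothing of the separate mice, and p-values measure the spread between these libraries. The code was tested on simulated data. Members, lists and tests were chosen with earlier results of these data known. Genes named are the members, Apoe, up to 4 called genes per list, 15 fixed pathway genes and 6 genes of similar pattern. A few genes that the rule names are not reported here. The class II genes, Thy1, Cst7 and Irgc1 were added after their values were seen. Tables were handled in pandas 2.3.3 and numpy 2.4.6 and figures drawn with matplotlib 3.10.9, under Python 3.11.15 with scipy 1.17.1.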

Additional observations from a re-analysis of the deposited data

Results flagged for a closer look

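Values that stood far from the rest of their group by Dixon's test were looked for in 57 genes and 2 groups each. In 114 groups 12 values were found. The test's nominal rate is about 1 in 20 groups and cannot be set against this count. The 57 genes include the class II genes, singled out after their values were seen, and genes chosen for a similar pattern. In APPPS1;Apoe-/- replicate 4 these were the high values of Cxcl9 (0.458 RPKM), Nlrc5 (0.297 RPKM), H2-Aa (21.2 RPKM), H2-Ab1 (13 RPKM), H2-Eb1 (7.77 RPKM) and Cd74 (83.3 RPKM). In APPPS1;Apoe-/- replicate 3 it was Ifng, at 0.063 RPKM where the other 6 knockout libraries are listed at 0. Among the APPPS1 libraries, replicate 3 was far below the others for Parp9 (1.58 RPKM), Bcl2a1b (6.87 RPKM) and Fcer1g (59.1 RPKM), replicate 5 far above for Ptprc (2.5 RPKM) and replicate 4 far above for Cxcl9 (0.112 RPKM). None of the 8 GTPase genes was among them.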

How the results depend on the processing

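The results were recomputed under 24 settings chosen with the tests and 3 added after seeing the data. The members' fitted differences lay below 0 in 8 of 8, or 7 of 7 where Gbp6 dropped out of the filter, under 26 of the 27 settings, the exception being the microglia term, where Gbp6, Igtp, Irgm1 and Irgm2 turned to 0.20, 0.12, 0.01 and 0.01. Gbp3 was called under 25 settings, Irgm1 under 8, Gbp2 under 2 and Irgm2 under 1, and Gbp6, Gbp7, Igtp and Iigp1 under 0. The number of members called lower, 2 with all libraries, was 1 with a pseudocount of 0.1, with no filter, with median scaling, quantile normalization or no variance trend, without both low-App libraries and in females alone, 0 with the alignments term and 0 with the microglia term, and 1 to 3 when 1 library was left out (3 without APPPS1;Apoe-/- replicate 4 or APPPS1 replicate 3). With the alignments term and without both low-App libraries, the number of members called lower was 2. Over all genes 633 were called lower and 465 higher. These counts were 132 and 70 with the alignments term and 66 and 37 with the microglia term. They were 197 and 84 with the alignments term without both low-App libraries, and 296 and 183 in females alone. With a pseudocount of 0.1 they were 620 and 458, and with no filter 517 and 354 of 20915 genes. Median scaling gave 531 lower and 701 higher, quantile normalization 608 and 687, and no variance trend 614 and 407. Without both low-App libraries 440 were called lower and 237 higher. Leaving out 1 library gave 435 to 853 lower and 276 to 741 higher calls, the upper ends without APPPS1;Apoe-/- replicate 4. Among the other named genes Jak1 was at 0.00 with the alignments term and Ifngr1 at -0.01 in females alone and at -0.01 to 0.05 when 1 library was left out, the lowest without APPPS1;Apoe-/- replicate 4 or APPPS1 replicate 2, and Ctsh was at 0.08 with the microglia term. The causes were not tested. No paired analysis was possible because the labels give no replicate numbers. Depth limits Gbp6 and Iigp1 most.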

Other observations

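Another gene of the family was higher in APPPS1;Apoe-/- cortex. Irgc1, an immunity-related GTPase gene known for expression in testis, was at 0.164 to 0.455 RPKM in the 7 APPPS1;Apoe-/- libraries and 0.0163 to 0.0914 RPKM in the 6 APPPS1 libraries, without overlap. Its mean was under 0.5 RPKM, so it entered only the fit with no filter, over 20915 genes (log2 difference 0.47 ± 0.07, SE, limma adjusted p = 0.00352). Irgc1 lies on chromosome 7 (24431919 to 24445682, mm10), 4.73 Mb from the deleted Apoe gene. Irgq, a family member 4.83 Mb from Apoe on the same chromosome, did not pass (-0.14 ± 0.07, adjusted p = 0.311 in the same fit). Irgc1 was singled out after its values were seen.

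The response element core GAAANNGAAA was also found in the 250 bases before the start of 7 of 18 type I interferon-stimulated genes and 5 of 10 other GTPases of the families with a sequence at hand. It was found in 3 of 14 interferon-gamma signalling genes, 2 of 17 other interferon-gamma targets and 1 of 5 microglia markers, and in 0 of 5 astrocyte and 0 of 5 endothelial markers. Over all genes 3.46% had a window with it. The gamma-activated site TTCNNNGAA was found in 4 of 10 other GTPases of the families and 5 of 14 interferon-gamma signalling genes. It was in 2 of 17 other interferon-gamma targets and 3 of 18 type I interferon-stimulated genes. Among markers it was in 2 of 5 of astrocytes, 2 of 8 of T and NK cells, 0 of 5 of microglia and 0 of 5 of endothelium. Of all genes 8.13% had a window with this site.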
